A study of Mus musculus with 2 samples.

Results

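The genes described here are 8 subunits of the NADPH oxidases of phagocytes and of colon epithelium, taken by name out of 55357 genes counted. Of these, 5 serve the phagocyte enzyme (Cybb, Cyba, Ncf1, Ncf4 and Rac2) and 3 serve the epithelial enzyme (Nox1, Noxo1 and Noxa1). All 8 were found in the gene list, and each was followed across neutrophil-like, monocyte/macrophage-like and epithelial-like cells, across the clusters within these classes, and between the libraries.

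An NADPH oxidase moves electrons from NADPH across a membrane onto oxygen and so makes superoxide. In phagocytes the catalytic subunit Cybb (NOX2) sits in the membrane with its partner Cyba, and is switched on when cytosolic subunits, Ncf1 and Ncf4 among them, and the GTPase Rac2 join it. This enzyme gives neutrophils their respiratory burst. In colon epithelium the catalytic subunit is Nox1, which uses the same membrane partner Cyba, with Noxo1 as the organizer in place of Ncf1, Noxa1 as the activator, and usually Rac1 as the GTPase.

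The study profiled single cells of mouse colon tumours in 2 libraries, 1 per genotype. The library labelled KO came from mice with floxed Ecm1 alleles (ECM1Flox/Flox) and a Cre recombinase under the Villin promoter, which is active in intestinal epithelium. The library labelled WT came from mice carrying the same floxed alleles without Cre. The sources used here do not state how many animals went into a library, their sex and age, the tumour model or which exons are flanked, and the extraction protocol in the labels is one for bulk RNA.

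After filtering 4233 cells remained for the library labelled KO and 8262 for the library labelled WT, and 13 of these cells carried a barcode found in both. Levels are given as CPM: the unique molecular identifiers (UMIs, counted molecules) of a gene per 1000000 UMIs of the cell group. With 1 library per genotype there is no replicate and no test of genotype. The 95% intervals cover counting error only, and the genotype cannot be told apart from everything else that differs between the libraries. The targeted gene Ecm1 was at 40.7 CPM (39.1 to 42.4) among epithelial-like cells for the library labelled KO and at 34.4 CPM (32.3 to 36.7) for the one labelled WT. It was not lower in the first, and without the flanked exons a count per gene does not check the labels. The libraries also differ in sex-linked RNA: Xist had 96659 UMIs under the label KO and 5 under the label WT, while Ddx3y had 0 and 5419. Cybb and Nox1 both lie on the X chromosome.

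Clusters were formed without using any of the 8 genes and were named from marker genes. Neutrophil-like cells numbered 201 in the library labelled KO and 2240 in the library labelled WT (median UMIs per cell 2843 and 1912). Monocyte/macrophage-like cells numbered 521 and 1265 (6642 and 5201), and epithelial-like cells 2221 and 1919 (20447 and 11582). All 10 neutrophil markers, all 12 macrophage markers and all 10 epithelial markers were detected in their own class in both libraries. Each list was also detected at lower level in the other classes, with Fcgr1 as the one of these markers at 0 in neutrophil-like cells of both libraries. In what follows, values are given for the library labelled KO first and for the library labelled WT second.

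The oxidase genes split by cell class in both libraries. Cybb, the catalytic subunit of the phagocyte enzyme, stood at 836 CPM (95% interval 809 to 865) and 862 CPM (842 to 882) in monocyte/macrophage-like cells. In neutrophil-like cells it stood at 93.7 CPM (71.0 to 121) and 87.2 CPM (78.7 to 96.2), and in epithelial-like cells at 3.20 and 6.61 CPM. Cybb was thus 8.92-fold (6.87 to 11.8) and 9.89-fold (8.93 to 11.0) higher in monocyte/macrophage-like than in neutrophil-like cells. Monocyte/macrophage-like cells held 81.5% and 78.8% of all Cybb UMIs of their library.

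Cyba, the membrane partner shared by both enzymes, was present in all 3 classes. Its level was 1515 and 1147 CPM in monocyte/macrophage-like cells, 960 and 525 CPM in neutrophil-like cells, and 699 and 563 CPM in epithelial-like cells. Monocyte/macrophage-like cells were highest in both libraries. The order of the other classes differed: neutrophil-like cells were 1.37-fold above epithelial-like cells in the library labelled KO (1.26 to 1.49) and 1.07-fold below them in the library labelled WT (1.03 to 1.12). Because epithelial-like cells are many and deep, they held 78.2% and 48.5% of all Cyba UMIs.

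The cytosolic subunits Ncf1 and Rac2 went the other way from Cybb. Ncf1, the organizer that docks the cytosolic complex at the membrane, had 664 and 528 CPM in neutrophil-like cells and at 177 and 188 CPM in monocyte/macrophage-like cells, 3.76-fold (3.32 to 4.25) and 2.81-fold (2.63 to 2.99) higher in neutrophil-like cells. Rac2, the GTPase of blood cells, had 847 and 701 CPM in neutrophil-like cells and at 218 and 261 CPM in monocyte/macrophage-like cells, a difference of 3.89-fold (3.48 to 4.34) and 2.69-fold (2.55 to 2.84). Rac2 was not confined to phagocytes: T-like cells held 606 and 647 CPM, where Cybb was at 12.0 and 13.3 CPM, and B-like cells held 552 and 530 CPM. B-like cells also carried Cybb, at 394 and 452 CPM, between the neutrophil-like and the monocyte/macrophage-like level. Ncf4, which binds a phosphoinositide of the phagosome membrane, differed least between the classes: 326 and 174 CPM in neutrophil-like cells and 237 and 143 CPM in monocyte/macrophage-like cells.

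So 2 of the 5 phagocyte genes (Cyba and Cybb) were past 1.5-fold higher in monocyte/macrophage-like cells, and 2 (Ncf1 and Rac2) were past 1.5-fold lower, in each library. Among all genes with at least 50 UMIs summed over both classes, 69.9% and 68.8% were past that fold on the higher side and 12.4% and 14.1% on the lower side. Higher in monocyte/macrophage-like cells was therefore the common direction, and the direction of Ncf1 and Rac2 the uncommon one. The 10 neutrophil markers alone made up 214143 and 217905 CPM of the neutrophil-like cells, and their part in these levels was not tested.

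The epithelial genes were nearly confined to epithelial-like cells, which held 97.7% and 93.4% of all Nox1 UMIs, 94.8% and 94.6% of Noxo1 UMIs and 93.7% and 90.04% of Noxa1 UMIs. Nox1 stood at 26.5 CPM (25.2 to 27.9) and 15.8 CPM (14.3 to 17.3) there. In monocyte/macrophage-like cells it had 7 and 10 UMIs (1.69 and 1.20 CPM), and in neutrophil-like cells 0 UMIs, where 3 UMIs would be 4.93 CPM, and 1 UMI. Noxo1 had 47.0 and 58.3 CPM in epithelial-like cells, against 4.83 and 2.04 CPM in monocyte/macrophage-like cells and 4.93 and 5.54 CPM in neutrophil-like cells. Noxa1 was at 16.8 and 7.55 CPM there and had 13 and 1 UMIs in monocyte/macrophage-like cells. Epithelial markers were themselves carried at low level in these phagocytes: Epcam stood at 216 and 42.2 CPM in monocyte/macrophage-like cells, against 3182 and 2383 CPM in epithelial-like cells. RNA carried from epithelial-like and neutrophil-like cells, at the ratio of their markers, would give 1.74 and 0.34 CPM of Nox1 in monocyte/macrophage-like cells. It would give 3.10 and 1.28 CPM of Noxo1 there, and 1.11 and 0.16 CPM of Noxa1 where 3.14 and 0.12 CPM were seen. In neutrophil-like cells RNA carried from the other 2 classes would give 1.75 and 1.78 CPM of Noxo1. The levels seen were above this but rested on 3 and 25 UMIs, too few in the library labelled KO to set them apart.

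**Figure D1:**
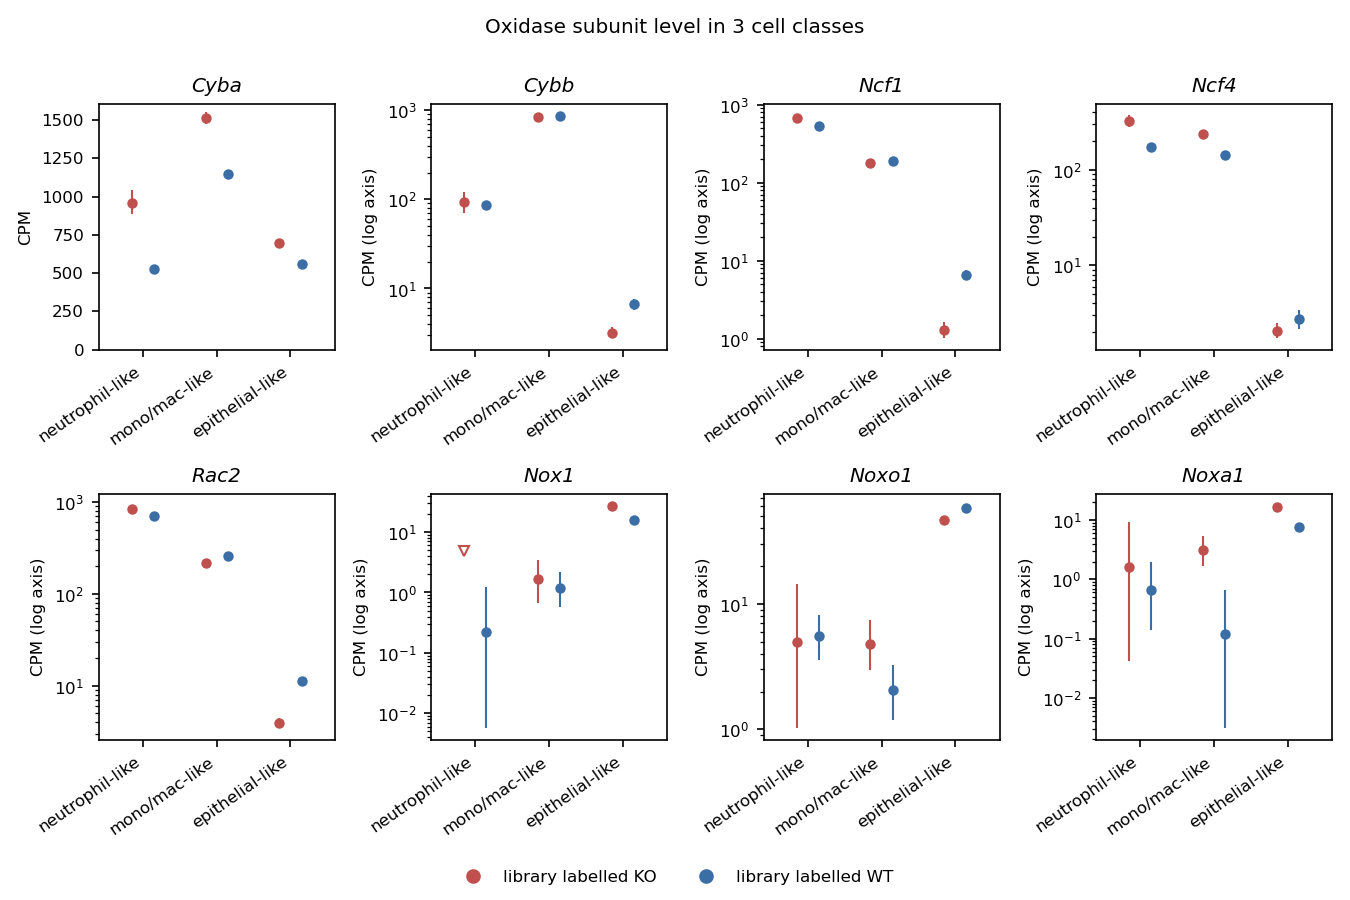
CPM of each of the 8 genes in neutrophil-like, monocyte/macrophage-like (mono/mac) and epithelial-like cells, library labelled KO in red and WT in blue; the axis is logarithmic except for Cyba, bars are 95% Poisson intervals, and the open triangle marks 0 UMIs, drawn at the level of 3 UMIs. Cybb is highest in monocyte/macrophage-like cells (836 and 862 CPM), Ncf1 and Rac2 in neutrophil-like cells, and Nox1, Noxo1 and Noxa1 in epithelial-like cells.

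The promoters of the 2 catalytic subunits are shown because these genes were at opposite ends of the classes, and those of Cyba and Noxo1 because these were the broad and the narrow partner. The sequences are RefSeq windows of the build GRCm38.p6, while the counts were made on GRCm39; 6 of the 8 genes had a window. Each window runs from 250 bases before the start of the gene to 50 after it, and positions count from +1 at the start. Capitals in the Cybb and Nox1 stretches mark GAGGAA (the core of the box bound by PU.1, a transcription factor of myeloid cells) and TGATAA (a site read by GATA factors), and capitals in the Cyba and Noxo1 stretches mark GGGCGG (the GC box), each searched on both strands. The stretches are chrX:9469310-9469384 on the minus strand for Cybb (-60 to +15), chrX:134111855-134111914 on the minus strand for Nox1 (-60 to -1), chr8:122432941-122433010 on the minus strand for Cyba (-70 to -1) and chr17:24696164-24696233 on the plus strand for Noxo1 (-70 to -1).
Cybb: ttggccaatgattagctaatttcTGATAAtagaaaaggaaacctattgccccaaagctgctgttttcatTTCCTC
Nox1: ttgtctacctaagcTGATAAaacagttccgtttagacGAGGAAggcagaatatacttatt
Cyba: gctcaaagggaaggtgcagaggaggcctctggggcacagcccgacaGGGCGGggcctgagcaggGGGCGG
Noxo1: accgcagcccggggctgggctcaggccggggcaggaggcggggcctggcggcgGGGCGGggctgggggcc

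Both catalytic genes held TGATAA upstream of the start, at -37 in Cybb and -46 in Nox1, and both held GAGGAA, at -23 in Nox1 and as its reverse TTCCTC at +10 in Cybb. The Nox1 window held TGATAA again on the reverse strand at -199 and -157, and the Cyba window held it at -215. GAGGAA occurs in 28.3% and TGATAA in 9.05% of the 32851 windows of 300 bases in the table. Neither of the catalytic genes held GGGCGG, which occurs in 35.7% of windows and stood at -24 and -6 in Cyba and at -17 in the stretch of Noxo1. A match is a run of letters and was not tested as a site.

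Within the phagocytes the subunits varied by cluster. Cybb stood at 889 and 981 CPM in the C1q macrophage-like cluster and at 874 and 939 CPM in the monocyte-derived-like cluster. It was lower, at 502 and 526 CPM, in the cluster led by Ccl24, Arg1 and Inhba, genes of alternatively activated and inflammatory macrophages. The Ccl24-led cluster was the lowest of the 3 in both libraries, while the other clusters lay close together. Ncf1 and Rac2 showed a narrower range over these 3 clusters, 137 to 185 CPM and 139 to 222 CPM for Ncf1, and 189 to 300 CPM and 230 to 328 CPM for Rac2. Rac2 was highest in the Ccl24-led cluster, where Cybb was lowest.

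Among neutrophil-like cells the Cxcr2-positive mature-like cluster (112 and 1507 cells) held 119 and 99.6 CPM of Cybb. The cluster led by Hcar2, F630028O10Rik and Upp1, with the chemokine genes Cxcl2 and Cxcl3 among its leading genes (84 and 559 cells), held 54.7 and 64.0 CPM. The Ccl3-positive-like cluster had 174 cells in the library labelled WT and 5 in that labelled KO, so only the first is given: Cybb stood there at 20.3 CPM, Ncf1 at 280 CPM and Rac2 at 284 CPM. All 3 were lower than in both other neutrophil-like clusters of that library, where Ncf1 stood at 511 and 639 CPM and Rac2 at 769 and 589 CPM. Cyba showed the other order, with 694 CPM in the Ccl3-positive-like cluster against 543 and 427 CPM.

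**Figure D2:**
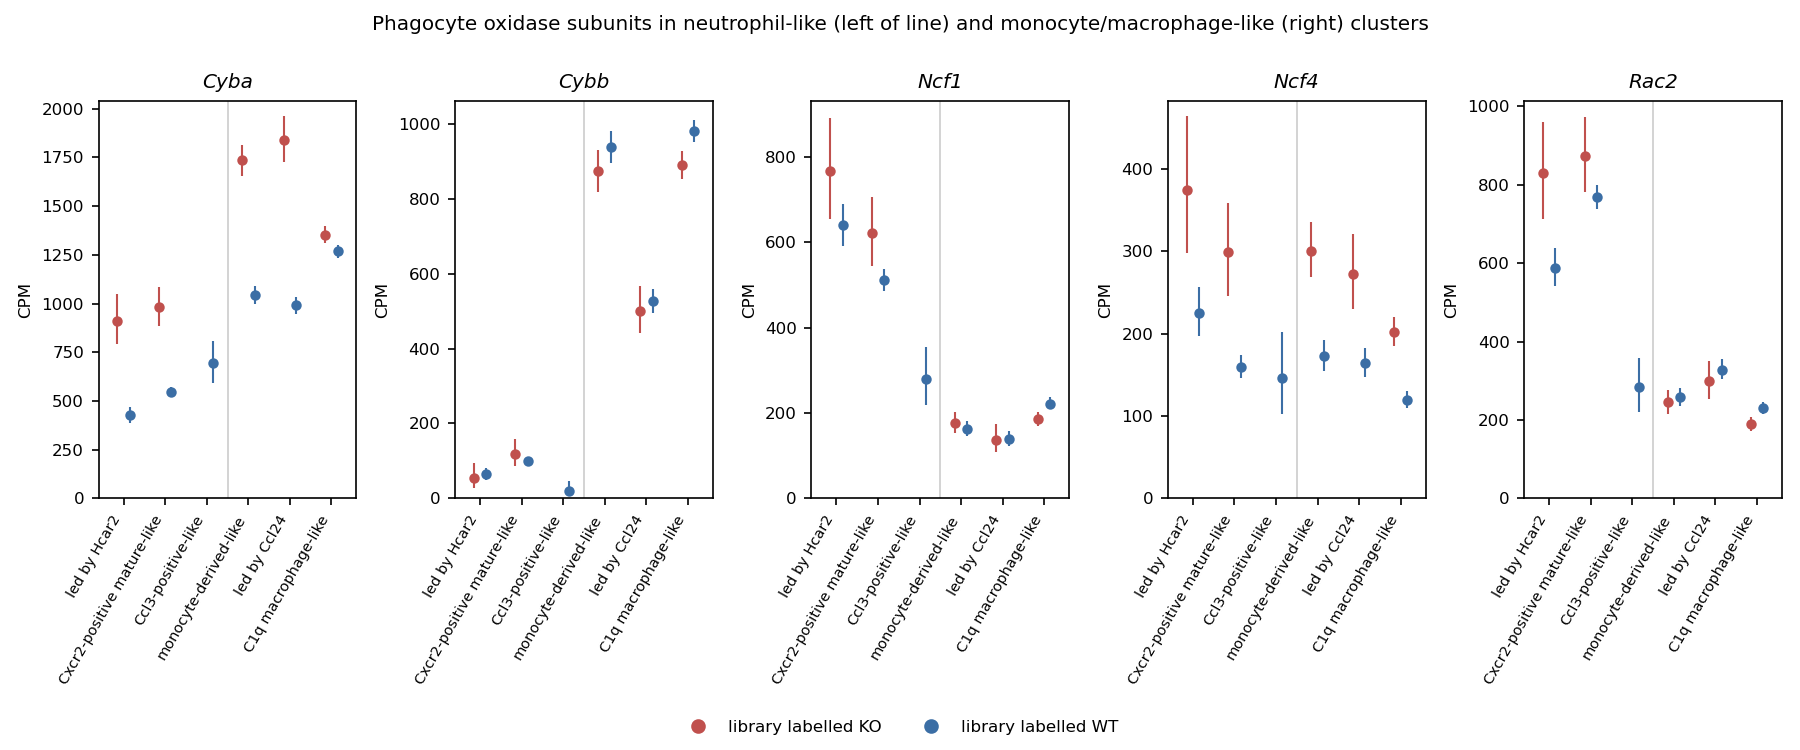
CPM of the 5 phagocyte oxidase genes in 3 neutrophil-like clusters (left of each line) and 3 monocyte/macrophage-like clusters (right), library labelled KO in red and WT in blue, with 95% Poisson intervals; a cluster is shown for a library with at least 20 cells in it. Cybb reaches at most 119 CPM in the neutrophil-like clusters shown and at least 502 CPM in the monocyte/macrophage-like clusters, and Ncf4 is higher in the library labelled KO in each cluster with both libraries.

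Between the libraries, Cyba and Ncf4 were the phagocyte genes that stood higher in the library labelled KO. In neutrophil-like cells Cyba was 1.83-fold higher (1.67 to 2.0035) and Ncf4 1.87-fold higher (1.60 to 2.19). Ncf1 (1.26-fold, 1.13 to 1.40), Rac2 (1.21-fold, 1.10 to 1.33) and Cybb (1.08-fold, 0.80 to 1.42) stayed under 1.5-fold. Hence 2 of the 5 genes were past 1.5-fold higher and 0 past it lower, where 13.6% of the 4752 genes with at least 50 UMIs were past it on the higher side and 28.5% on the lower side. The median log2 ratio of the 5 was 0.33, and that of all genes in these cells -0.16. By cluster, Cyba was 2.14-fold higher in the Hcar2-led cluster (1.80 to 2.53) and 1.80-fold in the Cxcr2-positive mature-like cluster (1.61 to 2.02), and Ncf4 1.66-fold (1.28 to 2.15) and 1.87-fold (1.51 to 2.30). The macrophage markers (11 of 12 detected in each library, Fcgr1 at 0) summed to 3423 and 1571 CPM and the epithelial markers to 472 and 316 CPM in neutrophil-like cells. RNA carried was reckoned from C1qa, C1qb and C1qc, at 0.96% and 1.00% of their monocyte/macrophage-like level, and from the epithelial markers. It would be 4.15% and 5.41% of the Cyba and 0.72% and 0.87% of the Ncf4 level. The 12 macrophage markers summed to 22124 and 20535 CPM in monocyte/macrophage-like cells. A reckoning by the full list would thus give more, but the highest marker alone made up 3043 and 1189 CPM of its sum in neutrophil-like cells. Whether neutrophil-like cells make that marker themselves was not tested, and the full list was not used. In the Hcar2-led and Cxcr2-positive mature-like clusters 16.7% and 13.4% of all genes measured were past 1.5-fold higher and 25.4% and 31.4% past it lower.

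In monocyte/macrophage-like cells Ncf4 was again higher, 1.66-fold (1.52 to 1.80), and Cyba was 1.32-fold higher (1.28 to 1.36). Cybb at 0.97-fold (0.93 to 1.01), Ncf1 at 0.94-fold (0.86 to 1.03) and Rac2 at 0.84-fold (0.77 to 0.90) lay near or below 1. That is 1 of 5 genes past 1.5-fold higher and 0 lower, against 15.7% and 17.3% of 9725 genes. The median log2 ratio of the 5 was -0.04, and that of all genes -0.03. Within the class, Ncf4 was raised by a like factor in each cluster: 1.74-fold in the monocyte-derived-like, 1.66-fold in the Ccl24-led and 1.69-fold in the C1q macrophage-like cluster. Cyba was not, with 1735 and 1044 CPM (1.66-fold, 1.56 to 1.77) in the first, 1841 and 990 CPM (1.86-fold, 1.72 to 2.01) in the second, and 1353 and 1269 CPM (1.07-fold, 1.02 to 1.11) in C1q macrophage-like cells. Among all genes measured, 17.6%, 11.0% and 13.3% were past 1.5-fold higher in these 3 clusters in the order named, and 27.0%, 26.8% and 15.2% past it lower.

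Cyba and Ncf4 were also higher in clusters other than phagocytes. Of the 27 clusters, 19 had at least 50 cells in each library. Cyba could be compared in all 19 and its ratio was above 1 in 19 of 19, with a median of 1.51-fold and a range of 1.07-fold to 2.14-fold. Ncf4 could be compared in 11 clusters and was above 1 in 11 of 11, with a median of 1.69-fold and a range of 1.09-fold to 2.43-fold. None of these 11 is epithelial-like: Ncf4 had fewer than 50 UMIs in each epithelial-like cluster, and in the class as a whole it was at 0.75-fold on 118 and 79 UMIs, of which 2 and 25 were in Paneth-like cells. The highest Ncf4 ratio, on 20 and 32 UMIs, was in the cluster led by Il17a and Trdc, genes of gamma-delta T cells (86.8 and 35.7 CPM, 1.32 to 4.38), and the lowest in the cluster led by Ccl22 and Ccl17, genes of mature dendritic cells (153 and 141 CPM).

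Among the 5238 genes compared in at least 10 clusters, 15.9% had a ratio above 1 in at least 90% of them, and 7.71% were past 1.5-fold higher in at least 50% of them. Ncf4 met both (9 of 11 clusters past 1.5-fold), as did Cyba (10 of 19). In the cluster led by Ccl5, Xcl1 and Cd7, which had 49 cells in the library labelled KO and so fell just outside, Cyba stood at 444 and 487 CPM. The other phagocyte genes were above 1 in fewer of their clusters: Cybb in 1 of 11 (median 0.86-fold), Ncf1 in 3 of 10 (0.91-fold) and Rac2 in 5 of 17 (0.82-fold).

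**Figure D3:**
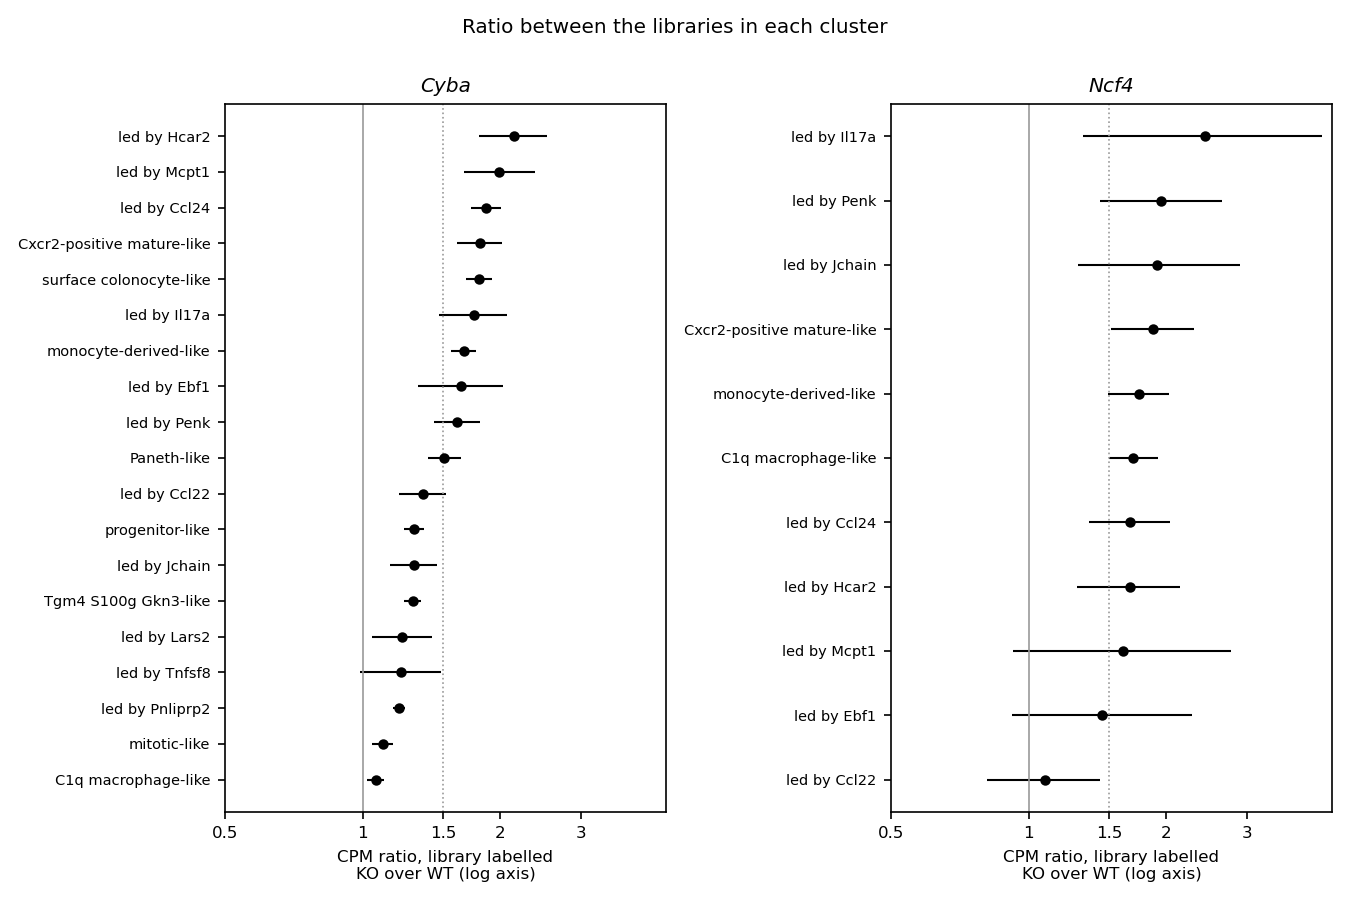
Ratio of CPM, library labelled KO over WT, for Cyba and Ncf4 in each cluster with at least 50 cells in both libraries and at least 50 UMIs of the gene (log axis, 95% conditional binomial intervals; solid line at 1, dotted line at 1.5). All 19 Cyba points and all 11 Ncf4 points lie above 1, though the intervals of the Tnfsf8-led cluster (Cyba) and of the Mcpt1-led, Ebf1-led and Ccl22-led clusters (Ncf4) reach below it; clusters without a cell type name are called by their leading gene.

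The Cybb value in neutrophil-like cells of the library labelled KO rested on few cells. There, 5 of 201 cells held 27 of the 57 Cybb UMIs (47.4%). Camp, Ltf and Ngp, which encode granule proteins made early in neutrophil maturation, summed to 27390 CPM in those 5 cells and to 815 CPM in the other 196. The macrophage markers summed to 4026 and 3396 CPM in the same cells. In the library labelled WT the 5 cells richest in Cybb held 134 CPM of the granule genes and 1277 CPM of the macrophage markers, and the other 2235 cells 119 and 1572 CPM. Without the 5 cells richest in Cybb of each library the ratio was 0.62-fold; 5 cells are a far larger share of 201 than of 2240, so a lower ratio is built into this setting. Without the 5 cells richest in Camp, Ltf and Ngp, equally uneven and chosen after seeing the data, it was 0.70-fold. The Cyba and Ncf4 ratios in neutrophil-like cells were then 1.81-fold each.

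The share of cells with at least 1 UMI followed the levels but also the depth. Cybb was detected in 77.5% and 84.1% of monocyte/macrophage-like cells and in 13.4% and 13.3% of neutrophil-like cells. With each cell thinned to 1000 UMIs these became 48.0% and 48.6%, and 6.15% and 7.54%, leaving out 34, 24, 6 and 105 shallower cells. Epithelial-like cells, taken as a class that should lack Cybb, gave 3.92% and 5.47% unthinned at their greater depth, and 0.37% and 0.87% thinned. RNA carried was reckoned at the ratio of C1qa, C1qb and C1qc for monocyte/macrophage-like and of the epithelial markers for epithelial-like cells. It would give 8.69% and 10.1% of the Cybb level of neutrophil-like cells, leaving 85.6 and 78.3 CPM. All 12 macrophage markers summed to 3423 and 1571 CPM there, against 22124 and 20535 CPM in monocyte/macrophage-like cells. The highest marker alone made up 3043 and 1189 CPM of the sum in neutrophil-like cells. By the full list more Cybb would be reckoned as carried, but whether neutrophil-like cells make that marker themselves was not tested. How much would be left was not reckoned. Ncf4 was detected in 56.2% and 27.5% of neutrophil-like cells, and in 22.1% and 14.4% after thinning, so the gap between the libraries narrowed but stayed past 1.5-fold.

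All 5 phagocyte genes were seen together in 194 of 521 and 290 of 1265 monocyte/macrophage-like cells (37.2%, 33.1 to 41.5, and 22.9%, 20.6 to 25.3). In neutrophil-like cells this was 12 of 201 and 34 of 2240 cells (5.97% and 1.52%). Multiplying the separate shares would give 16.6% and 16.0% in the first class and 4.10% and 0.78% in the second. Deep cells show more of every gene, and the part of depth in this excess was not tested.

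The phagocyte genes Cybb, Ncf1 and Rac2 had few UMIs in epithelial-like cells, with lower levels under the label KO. Cybb was at 3.20 and 6.61 CPM (0.48-fold, 0.39 to 0.60), Ncf1 at 1.28 and 6.61 CPM (0.19-fold, 0.15 to 0.26), Rac2 at 3.92 and 11.2 CPM (0.35-fold, 0.30 to 0.42), and Ncf4 at 2.07 and 2.75 CPM (0.75-fold, 0.56 to 1.02). Neutrophil and macrophage markers moved the same way in these cells. So did the summed markers of T cells (25.4 and 33.7 CPM), B cells (4.13 and 4.94 CPM), mast cells (41.8 and 126 CPM) and mature dendritic cells (40.9 and 47.6 CPM). Plasma cell markers did not (489 and 366 CPM). All 10 neutrophil markers were detected, at 127 and 927 CPM summed, with S100a8 at 41.5 and 361 CPM, and all 12 macrophage markers at 79.0 and 163 CPM. RNA carried was reckoned from S100a8 and S100a9 for neutrophil-like and from C1qa, C1qb and C1qc for monocyte/macrophage-like cells. It would account for 59.5% and 95.8% of the Cybb, 58.4% and 52.7% of the Ncf1, 33.8% and 62.2% of the Ncf4 and 24.0% and 42.2% of the Rac2. Taking it off left 1.29 and 0.28 CPM of Cybb and 1.37 and 1.04 CPM of Ncf4, which turns the order of the libraries. It left 0.53 and 3.12 CPM of Ncf1 and 2.98 and 6.46 CPM of Rac2, which keeps their order. The same reckoning gave 0.55% and 1.80% for Cyba and at most 0.064% for Nox1, Noxo1 and Noxa1. The full lists of neutrophil and macrophage markers were not used for it, and the macrophage list would carry more. All 5 phagocyte genes were seen together in 6 of 2221 and 6 of 1919 epithelial-like cells. The product of the separate shares was 0.0002% and 0.0011%. Whether such cells are doublets with phagocytes was not tested.

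Of the 8 genes in epithelial-like cells, 2 (Nox1 and Noxa1) were past 1.5-fold higher and 3 (Cybb, Ncf1 and Rac2) past it lower, beside 10.3% and 16.7% of the 15474 genes with at least 50 UMIs. Cyba was 1.24-fold higher (1.22 to 1.27) and Noxo1 stood at 0.81-fold (0.76 to 0.86). The epithelial-like cells were not made up alike: in the library labelled KO the largest cluster was the one led by Pnliprp2, Pnliprp1 and Ptn (606 cells), and in the library labelled WT the surface colonocyte-like cluster (545 cells, against 76).

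Nox1 was a gene of the progenitor-like and absorptive-like clusters. In the progenitor-like cluster, led by Slc12a2 and Gpx2 and with Nox1 itself among its leading genes, it stood at 67.2 CPM (62.9 to 71.7) and 53.9 CPM (46.4 to 62.4). In the absorptive-like cluster it stood at 41.8 and 65.2 CPM (36.8 to 47.4 and 46.6 to 88.8), where the library labelled WT had 36 cells, so that the order of these 2 clusters is not set by these data in that library. The remaining 6 epithelial-like clusters lay between 4.48 and 18.6 CPM and between 4.52 and 14.3 CPM. The lowest values were in the Pnliprp2-led cluster (4.48 and 6.48 CPM), in the Tgm4 S100g Gkn3-like cluster (4.598 and 10.6 CPM) and, in the library labelled WT, in the surface colonocyte-like cluster (4.52 CPM), whose interval (2.63 to 7.24) overlapped that of the Pnliprp2-led cluster (4.76 to 8.62).

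Noxo1, the organizer, covered a wider set of clusters than Nox1. It stood at 108 and 178 CPM in the surface colonocyte-like cluster, the highest in both libraries. The progenitor-like (87.7 and 109 CPM), absorptive-like (78.9 and 88.0 CPM), Paneth-like (90.02 and 116 CPM) and goblet-like (61.9 and 67.7 CPM) clusters followed. The Tgm4 S100g Gkn3-like cluster (14.5 and 13.8 CPM) and the Pnliprp2-led cluster (5.54 and 4.82 CPM) were low in both libraries. In the library labelled WT, surface colonocyte-like cells thus held the highest Noxo1 beside one of the lowest Nox1 levels.

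Noxa1, the activator, varied least of the 3 among the clusters, from 10.0 to 33.8 CPM and from 4.01 to 12.5 CPM. Its highest value was in absorptive-like cells in the library labelled KO (33.8 CPM) and in progenitor-like cells in the library labelled WT (12.5 CPM). Cyba was highest in the Pnliprp2-led cluster (980 and 815 CPM) and lowest in goblet-like cells (212 and 118 CPM).

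**Figure D4:**
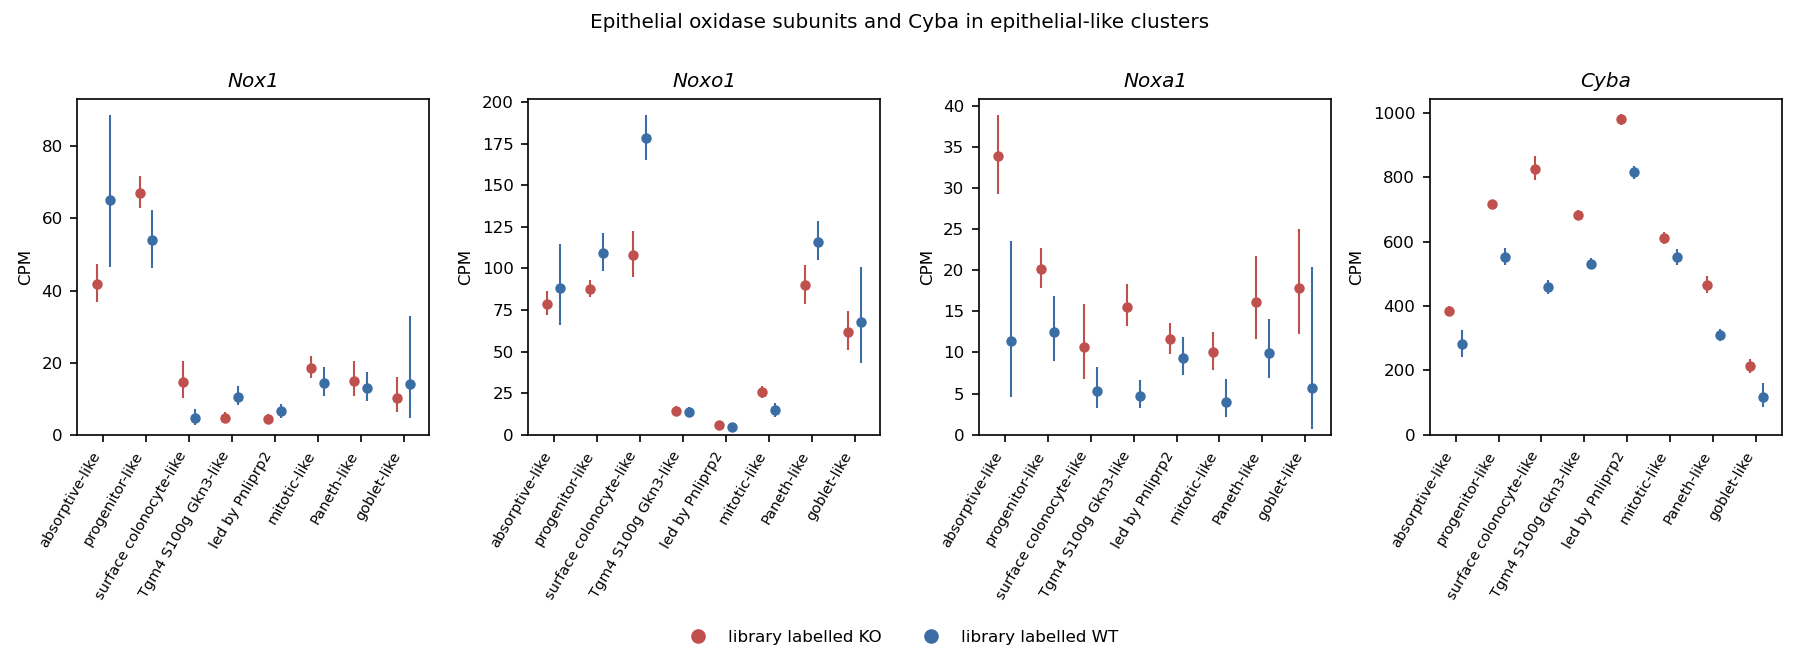
CPM of Nox1, Noxo1, Noxa1 and Cyba in 8 epithelial-like clusters, library labelled KO in red and WT in blue, with 95% Poisson intervals; each panel has its own linear axis from 0. Nox1 is highest in the absorptive-like and progenitor-like clusters, Noxo1 in the surface colonocyte-like cluster (108 and 178 CPM) and Cyba in the cluster led by Pnliprp2 (980 and 815 CPM); the absorptive-like and goblet-like clusters hold 36 and 35 cells of the library labelled WT.

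The pooled Nox1 ratio of 1.68-fold (1.51 to 1.87) did not describe the single clusters. With at least 50 cells in each library and 50 UMIs of the gene, 6 clusters could be compared. The ratio was 1.25-fold in progenitor-like (1.06 to 1.47), 1.30-fold in mitotic-like (0.94 to 1.83) and 1.15-fold in Paneth-like cells (0.72 to 1.81). It was 0.69-fold in the Pnliprp2-led cluster (0.46 to 1.04) and 0.43-fold in the Tgm4 S100g Gkn3-like cluster (0.29 to 0.64). In the surface colonocyte-like cluster it was 3.24-fold (1.75 to 6.204), on 33 and 17 UMIs and with median UMIs per cell of 28320 and 2870. Thus 1 of 6 clusters was past 1.5-fold higher and 1 past it lower. In the progenitor-like, mitotic-like, Paneth-like, Pnliprp2-led, Tgm4 S100g Gkn3-like and surface colonocyte-like clusters, 10.2%, 12.9%, 12.7%, 11.2%, 11.9% and 17.8% of all genes measured were past it higher and 12.4%, 8.02%, 10.8%, 12.0%, 9.78% and 23.9% lower.

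The progenitor-like cluster, where Nox1 was high, made up 401 of 2221 epithelial-like cells in the library labelled KO and 160 of 1919 in the library labelled WT. Giving each cluster the same weight put the Nox1 ratio at 0.97-fold over all 8 clusters, 2 of which have 36 and 35 cells in the library labelled WT. Over the 6 clusters with at least 50 cells in each library it was 1.21-fold, a setting chosen after seeing the data. Giving each cell the same weight put it at 2.32-fold. The direction of the Nox1 difference over the whole class therefore depends on how clusters and cells are weighted.

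Noxa1 was steadier. Its pooled ratio was 2.22-fold (1.92 to 2.59), and it was above 1 in 5 of 5 clusters compared, past 1.5-fold in 4: 1.61-fold in progenitor-like (1.16 to 2.28) and in Paneth-like cells (0.997 to 2.62), 2.49-fold in mitotic-like (1.40 to 4.77) and 3.32-fold in Tgm4 S100g Gkn3-like cells (2.24 to 5.06). In the Pnliprp2-led cluster it was 1.24-fold (0.93 to 1.67). With equal weight per cluster the Noxa1 ratio was 2.16-fold over 8 clusters and 1.83-fold over 6.

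Noxo1 had a pooled ratio of 0.81-fold, and 0.41-fold when each cell had the same weight. It was 0.60-fold in surface colonocyte-like cells (0.52 to 0.70, at the unequal depth given above), 0.80-fold in progenitor-like (0.71 to 0.90) and 0.77-fold in Paneth-like cells (0.66 to 0.91). It was 1.06-fold in Tgm4 S100g Gkn3-like cells (0.80 to 1.39), 1.15-fold in the Pnliprp2-led cluster (0.76 to 1.77) and 1.76-fold in mitotic-like cells (1.29 to 2.44). Cyba was higher in the library labelled KO in all 6 of these clusters, from 1.11-fold in mitotic-like cells (1.05 to 1.17) to 1.80-fold in surface colonocyte-like cells (1.68 to 1.92).

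**Figure D5:**
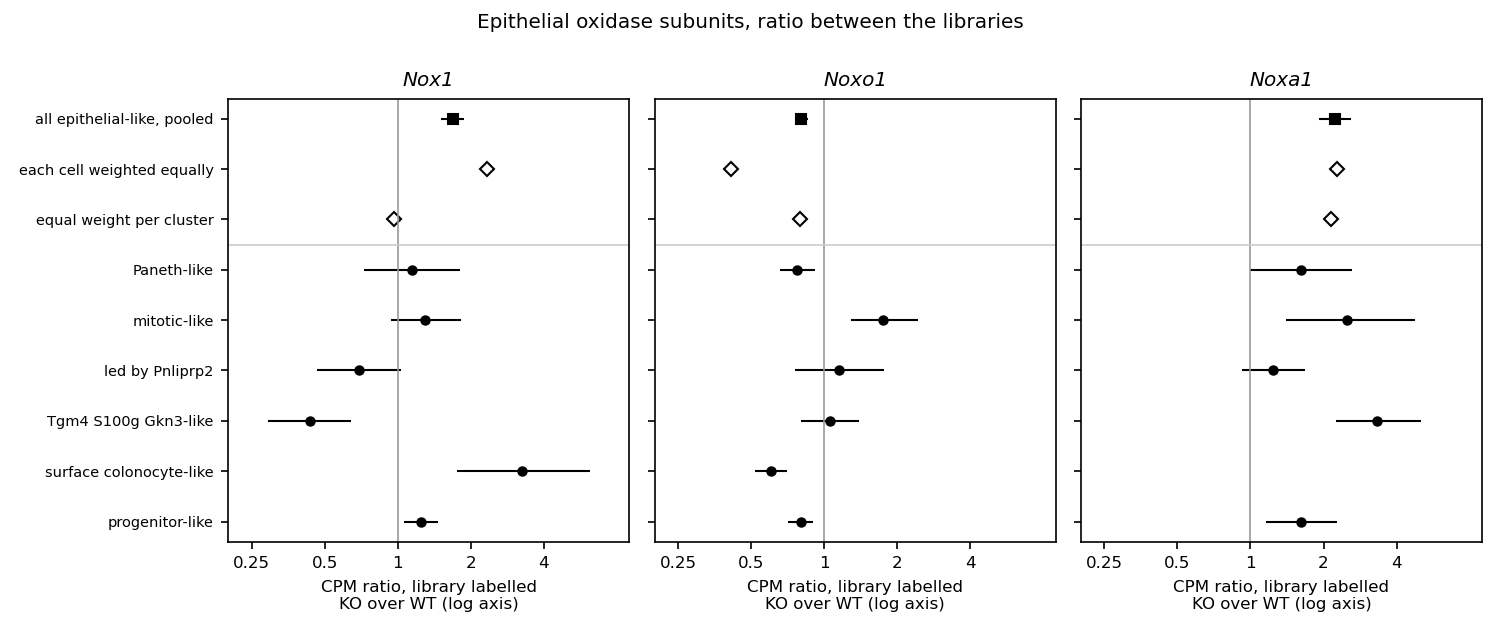
Ratio of CPM, library labelled KO over WT, of Nox1, Noxo1 and Noxa1 (log axis): circles are the epithelial-like clusters with at least 50 cells in both libraries and 50 UMIs of the gene, squares the pooled class, both with 95% intervals, and diamonds, drawn without error, the class ratio with equal weight per cell or per cluster (8 clusters). Nox1 lies on both sides of 1 (0.43 to 3.24 by cluster), while each Noxa1 point lies above 1.

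The share of cells holding Nox1, Noxo1 and Noxa1 together was highest in the progenitor-like and absorptive-like clusters. In the first, 102 of 401 cells (25.4%, 21.2 to 29.995) and 16 of 160 cells (10.0%, 5.82 to 15.7) held a UMI of all 3, at median depths of 26005 and 18420 UMIs. The product of the separate shares was 17.4% and 4.78%. Every one of these cells also held Cyba. All 3 were held in the absorptive-like cluster by 42 of 237 and 3 of 36 cells (17.7%, 13.1 to 23.2, and 8.33%, 1.75 to 22.5), intervals that overlap those of the progenitor-like cluster. In mitotic-like cells this was 18 of 198 and 0 of 152 cells, and in Paneth-like cells 8 of 119 and 5 of 216. Goblet-like cells gave 4 of 159 and 1 of 35, and the Pnliprp2-led cluster 6 of 606 and 2 of 443. In surface colonocyte-like cells it was 3 of 76 and 1 of 545 cells, and in the Tgm4 S100g Gkn3-like cluster 7 of 425 and 2 of 332 cells. Depth differed between the clusters, and its part in these shares was not tested. In neutrophil-like cells no cell held all 3 (0 of 201 and 0 of 2240).

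Detection of single genes in progenitor-like cells was 57.4% and 33.1% for Nox1, 76.3% and 70.0% for Noxo1 and 39.7% and 20.6% for Noxa1. Thinned to 2000 UMIs per cell, which left out 15 and 24 cells, Nox1 was detected in 11.1% and 10.3%, Noxo1 in 16.8% and 21.3%, and Noxa1 in 3.37% and 2.21%. At equal depth the Nox1 shares of the libraries in this cluster came close together. Monocyte/macrophage-like cells, taken as a class that should lack Nox1, gave 1.34% and 0.79% unthinned and 0.45% and 0.17% at 2000 UMIs. Over all epithelial-like cells Nox1 was detected in 20.7% and 10.3%, and in 3.67% and 2.30% at 2000 UMIs (122 and 308 cells left out). For Noxo1 the order of the libraries turned with depth, from 40.1% and 36.3% to 7.19% and 14.3%.

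Other genes of the pathway were read from 3 lists. Of 12 other oxidase subunits and maturation factors, 5, 6 and 9 had at least 50 UMIs in neutrophil-like, monocyte/macrophage-like and epithelial-like cells. Past 1.5-fold higher were 1, 1 and 1 of them and past it lower 0, 1 and 3, where 13.6%, 15.7% and 10.3% of all genes were higher and 28.5%, 17.3% and 16.7% lower. Their median log2 ratios were 0.12, -0.12 and -0.23, and those of all genes -0.16, -0.03 and -0.02. Cybc1, which helps the Cybb and Cyba pair to mature, stood at 24.7 and 22.6, 37.4 and 40.0, and 16.3 and 14.4 CPM. Rac1 stood at 467 and 322, 529 and 573, and 364 and 427 CPM. Rap1a, a small GTPase found with the membrane subunits, was the gene past 1.5-fold higher in all 3 classes: 2.45-fold, 1.66-fold and 1.54-fold.

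The dual oxidase Duox2, which makes hydrogen peroxide at the colon surface, and its maturation factor Duoxa2 were also lower in epithelial-like cells under the label KO. Duox2 was at 52.7 and 163 CPM (0.32-fold, 0.31 to 0.34) and Duoxa2 at 48.1 and 109 CPM (0.44-fold, 0.42 to 0.46). They marked the surface colonocyte-like cluster, which was larger in the library labelled WT, and within it they were lower as well: 307 and 889 CPM for Duox2 (0.35-fold, 0.32 to 0.38) and 326 and 629 CPM for Duoxa2 (0.52-fold, 0.48 to 0.56). That cluster had 76 and 545 cells at median UMIs of 28320 and 2870, and whether its cells are alike in the libraries was not tested. Duoxa1, the partner of Duox1, was low throughout (0.74 and 1.91 CPM). Duox2 also had 14 and 47 UMIs in monocyte/macrophage-like cells, at 0.60-fold (0.30 to 1.11).

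Of 24 genes upstream of the phagocyte oxidase (receptors, kinases and exchange factors), 2 of 23 measured in neutrophil-like cells were past 1.5-fold higher and 6 lower. In monocyte/macrophage-like cells 0 of 24 were higher and 3 lower, and in epithelial-like cells 1 of 22 higher and 15 lower. Beside the shares of all genes just given, the counts lower were near the background in neutrophil-like cells, under it in monocyte/macrophage-like cells and above it in epithelial-like cells. Median log2 ratios were -0.22, -0.22 and -1.16. In neutrophil-like cells the kinase Syk, which relays Fc receptor and integrin signals, stood at 178 and 596 CPM (0.30-fold, 0.24 to 0.36), Mapk14 at 0.39-fold and Pik3cg at 0.40-fold, while Pak1 (1.70-fold, 0.88 to 3.08) and Plcg2 (1.68-fold, 1.03 to 2.63) stood higher. In monocyte/macrophage-like cells Prkcd, a kinase that phosphorylates Ncf1, stood at 184 and 490 CPM (0.37-fold, 0.35 to 0.40), the formyl peptide receptor Fpr2 at 0.40-fold and Syk at 0.57-fold. In epithelial-like cells the lowest ratios were those of Itgam, C5ar1 and Fpr2 (0.17-fold, 0.18-fold and 0.21-fold), on levels of at most 8.45 CPM. The neutrophil markers given above moved the same way in these cells, and their part in this was not tested. The gene past 1.5-fold higher there was Vav3 (5.45 and 3.41 CPM).

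Of 17 genes that handle superoxide and peroxide, 3 of 12 measured were past 1.5-fold higher and 1 lower in neutrophil-like cells, 2 of 14 higher and 3 lower in monocyte/macrophage-like cells, and 0 of 14 higher and 3 lower in epithelial-like cells. Both counts of the monocyte/macrophage-like class lay near the shares of all genes (15.7% higher, 17.3% lower), as did the count lower in epithelial-like cells (16.7%). Median log2 ratios were 0.26, -0.25 and -0.16 in the 3 classes. In neutrophil-like cells the peroxiredoxin Prdx5 stood at 2805 and 1673 CPM (1.68-fold, 1.59 to 1.77), with Prdx2 at 1.83-fold, Gpx1 at 1.62-fold and Gpx4 at 0.50-fold. The superoxide dismutase Sod1 was lower in monocyte/macrophage-like (58.2 and 103 CPM, 0.57-fold) and in epithelial-like cells (132 and 230 CPM, 0.57-fold). In monocyte/macrophage-like cells Prdx1 was at 0.67-fold and Gpx3 at 0.53-fold, while Prdx2 was at 1.51-fold and Gpx2 at 3.53-fold. Gpx2 is an epithelial gene, and Epcam stood at 216 and 42.2 CPM in the same cells. In epithelial-like cells Gpx3 was at 0.14-fold and Hmox1 at 0.62-fold.

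Across clusters with at least 20 cells (25 for the library labelled KO, 24 for WT), the genes whose log2(CPM + 1) ran most like that of Cybb were Fcgr2b, Gm6377, Cd86, Unc93b1 and Napsa, with Pearson correlations of 0.82 to 0.87. Among the 8 genes, Ncf1 (0.77 and 0.73) and Ncf4 (0.70 and 0.76) came nearest to Cybb, and Cyba was farther off (0.40 and 0.36). The genes most like Nox1 were Scd2, Erfe, Ppp1r1b, Fut9 and Plekha7, with correlations of 0.86 to 0.91. Noxo1 (0.80 and 0.75) and Noxa1 (0.73 and 0.78) were near to Nox1, and Cyba was not (-0.37 and -0.29). Clusters of a library share their preparation and depth, so these values are a description.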

How the data were processed

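Cell Ranger 7.2.0 produced the matrices, per the file headers, and the deposited values are UMI counts, whole numbers per gene and barcode that were not normalized. Per the submitters' processing notes the build was GRCm39. Annotation and cell calling: not given in the sources used here. Barcodes numbered 4896 and 9512 (KO, WT), with 75024663 and 59189995 UMIs and medians of 7950 and 2706, and 17 were found in both.

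A barcode was kept if it had 200 genes or more and its mitochondrial share of UMIs was under 20%. Scrublet's own threshold marked 0.0456% and 0%, so the highest-scoring barcodes, 0.8% per 1000, were removed (154 and 633). The 2 libraries were clustered together with scanpy 1.11.5 (Python 3.11.15; 2000 variable genes, 30 components, 15 neighbours, Leiden resolution 1, seed 0), without the 8 genes, the pathway lists or sex genes. Clusters were named from 19 marker lists; the naming rule was adjusted after the clusters were seen. The Ccl24-led cluster and the other clusters without a subtype are called by their leading genes. UMIs were summed per library and class; CPM carry exact Poisson, ratios conditional binomial and shares Clopper-Pearson intervals at 95%. A gene was past the fold at 1.5 with at least 50 UMIs summed, in groups of at least 50 cells in both libraries. A count of 0 was set to 3 UMIs in the ratios over all genes and in the figures. RNA carried over was taken as a source class's level times the ratio of its summed markers. These were S100a8 and S100a9 for neutrophil-like cells and C1qa, C1qb and C1qc for monocyte/macrophage-like cells. For epithelial-like cells all 10 epithelial markers were used. The calculation of ratios was tested on simulated data.

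The 8 genes and the lists were chosen with earlier results of these data known. The genes named are the 8, Rac1, Cybc1, Duox2 and Duoxa2, the 3 highest and 3 lowest of each list past the fold per class, the 5 genes most like Cybb and Nox1, and markers beside a result; 1 further gene of the rule is not reported here. Alternatives for filters, doublets, resolution, weighting of cells and clusters, the CPM total and carried RNA were run, 2 of them chosen after seeing the data.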

Additional observations from a re-analysis of the deposited data

Results flagged for a closer look

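The ratio between the libraries went opposite ways in different epithelial-like clusters for 2 genes. Nox1 was at 3.24-fold in surface colonocyte-like cells and at 0.434-fold in Tgm4 S100g Gkn3-like cells. Noxo1 was at 1.76-fold in mitotic-like cells and at 0.605-fold in surface colonocyte-like cells. The surface colonocyte-like cells had median UMIs per cell of 28320 and 2870. The difference between clusters was not tested, since there is 1 library per genotype.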

How the results depend on the processing

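With 1 library per genotype nothing here tests genotype, no library could be left out, and intervals cover counting error only; depth limits the rare genes most (Nox1 in phagocytes, Noxa1). No paired analysis was possible because each genotype has a single library. Under the alternatives, 92 of 98 recomputed counts of genes past the fold stayed within 1.5 times their value. In epithelial-like cells the number of genes higher fell from 2 to 1 with equal weight per cluster, over 8 clusters or over those with at least 50 cells, as Nox1 went to 0.97-fold, on the other side of 1, and 1.21-fold. In monocyte/macrophage-like cells it was 2 in place of 1 without doublet removal, which adds Noxo1. In neutrophil-like cells the number lower was 1 in place of 0 without the 5 cells richest in each gene (Cybb, 0.62-fold), a setting that by construction lowers the library with fewer cells more. By share of epithelial-like cells with a UMI, 2 genes were lower, but 4 at 1000 UMIs per cell and 5 at 2000. Of 245 recomputed single ratios, 217 stayed within the 95% interval of their value, 27 moved outside it, and 1 past the fold (Nox1) fell below 1. Cybb, not past the fold, also crossed 1, down to 0.62 in neutrophil-like and up to 1.01 in monocyte/macrophage-like cells. The ratios of Cyba in neutrophil-like cells (1.72 to 1.95), of Ncf4 in neutrophil-like (1.75 to 1.997) and monocyte/macrophage-like cells (1.52 to 1.72) and of Noxa1 in epithelial-like cells (1.83 to 2.31) stayed past 1.5-fold under every alternative run.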
